A study of Canis lupus familiaris with 6 samples.

Results

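The BCL2 family of apoptosis regulators was examined in whole blood of Beagle dogs after 30 days of feeding. The family was given by 10 gene symbols (BCL2, BCL2L1, BCL2L11, BCL2A1, MCL1, BAX, BAK1, BAD, BID and BNIP3L), and 9 of them were found by symbol among the 31512 genes of the deposited table, the exception being BNIP3L. Whole blood was taken from 3 dogs of the control group, fed without CPP-Se, and 3 dogs of the CPP-Se group, fed with this chelate of casein phosphopeptides and selenium. All dogs were adults 1.5 years old that ate the same maintenance food, followed by 30 g of a snack. The snack of the CPP-Se group held 0.03% CPP-Se. One library per dog was sequenced from poly-A RNA.

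BCL2 proteins decide whether the outer membrane of the mitochondrion stays sealed. The guardians (BCL2, BCL-XL, MCL1 and BFL1, the products of BCL2, BCL2L1, MCL1 and BCL2A1) hold the effectors BAX and BAK in check, and BH3-only proteins such as BIM, BAD and BID, the products of BCL2L11, BAD and BID, answer death signals by binding guardians or effectors. Once BAX or BAK opens the membrane, cytochrome c leaves it and caspases are activated. In blood, neutrophils are short-lived and lean on MCL1 and BFL1, maturing red cells and platelets on BCL-XL, and resting lymphocytes on BCL2, while BNIP3L marks mitochondria for removal from young red cells.

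The libraries held between 6598173 and 8067034 reads on genes, and hemoglobin genes took 48.7% to 55.9% of them in 5 dogs and 36.6% in CPP-Se replicate 2, which therefore stood apart. The library size implied by the FPKM was 0.882 to 1.05 times the reads on genes in the other 5 dogs and 1.65 times in this dog. Values are FPKM (fragments per kilobase of gene, scaled by the authors to library size). The 9847 genes whose mean over the dogs reached 1 FPKM were tested on log2(FPKM + 1) by limma, two-sided, with Benjamini-Hochberg adjustment over these genes. Genes were called where the adjusted p was below 0.05 and the groups differed 1.5-fold or more. All 9 members were tested. By this rule 3 genes in all (0.0305% of those tested) were called, and this number was 0 without any one of the control dogs or CPP-Se replicate 3, 1 without CPP-Se replicate 1 and 14 without CPP-Se replicate 2. Whole blood mixes cell types, so fewer cells of a type and less RNA per cell cannot be told apart.

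Among the 9 members found by symbol, the guardians carried most of the summed FPKM. MCL1, BCL2L1, BCL2A1 and BCL2 together made up 75.9% to 80.1% of the summed FPKM of the 9 members in the control dogs and 77.2% to 81.7% in the CPP-Se dogs, so the groups overlapped. The effectors BAX and BAK1 held 10.3% to 11.7% and 10.2% to 12.5%, and the BH3-only genes 9.36% to 12.4% and 7.56% to 12.2%, also with overlap. Summed over the family, expression was 258, 242 and 218 FPKM in the control dogs and 210, 193 and 253 FPKM in the CPP-Se dogs. The shares of the 3 roles thus overlapped between the groups.

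Ordered by their mean FPKM over the 6 dogs, the members ran from MCL1 at 103.9 FPKM through BCL2L1 (55.0), BCL2A1 (17.5), BAX (16.5), BID (15.5), BAK1 (8.83), BAD (5.76) and BCL2 (3.68) to BCL2L11 at 2.38 FPKM. The order by group means was the same in the control group, while in the CPP-Se group BCL2A1 (12.01 FPKM) came after BAX (15.3) and BID (13.9). In this order, BCL2L1 lay above BCL2A1 in each of the 6 dogs and their ranges did not overlap, whereas in the other 7 pairs of neighbours the ranges over the dogs overlapped. MCL1 was above BCL2L1 in 4 of the 6 dogs. Levels between genes rest on the annotated lengths, which ran from 523 bases for BAD to 4719 bases for BCL2L11. Reads behind the values ranged from a mean of 22.3 per dog for BAD and 29.5 for BCL2 to 2125 for MCL1, so BAD and BCL2 were the least precisely counted.

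**Figure D1:**
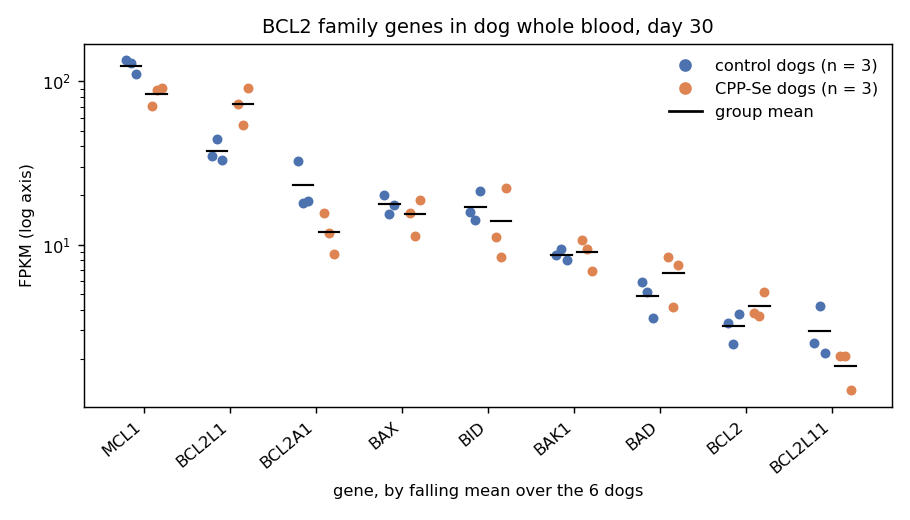
FPKM on a log axis of the 9 BCL2 family genes in each of the 3 control and 3 CPP-Se dogs, with the group mean as a bar. BCL2L1 lies higher in the CPP-Se dogs (53.9 to 91.3 FPKM) than in the control dogs (33.03 to 44.6 FPKM), MCL1, BCL2A1 and BCL2L11 lie lower without overlap, and the other 5 genes overlap.

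By limma, 0 of the 9 members were called between the groups, the lowest adjusted p being 0.176 for BCL2L1. An unadjusted p under 0.05 was found for 3 members, BCL2L1 (higher in the CPP-Se group) and MCL1 and BCL2A1 (lower), where 16.0% of all genes tested had one (6.87% higher and 9.10% lower). The groups did not overlap in 4 members, 1 higher and 3 lower, against 23.0% of all genes tested (10.4% higher and 12.6% lower). With the reads outside hemoglobin genes as library size, which moved CPP-Se replicate 2 most, BCL2L1 and BCL2 were higher without overlap (13.9% of all genes tested) and BCL2A1 lower (5.85%), while MCL1 and BCL2L11 overlapped. The median log2 fold change was -0.22 over the members and -0.00433 over all genes tested. On the recovered reads, limma-voom also called 0 of the members, and a negative binomial model called 1, BCL2L1, where it called 4.38% of all genes tested (1.51% higher and 2.86% lower). Both found an unadjusted p under 0.05 for 3 members, 1 higher and 2 lower, against 16.1% of all genes tested with limma-voom and 17.0% with the negative binomial model.

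**Figure D2:**
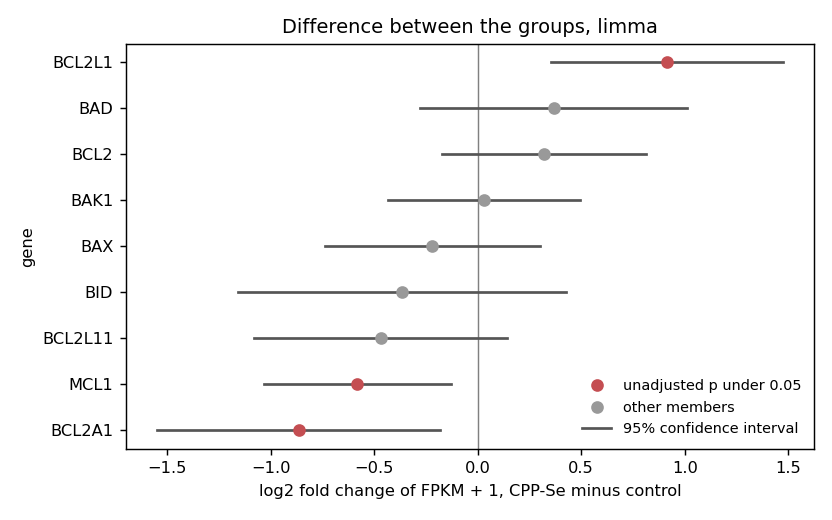
Log2 fold change of FPKM + 1 (CPP-Se minus control) of the 9 members by limma, with 95% confidence intervals. The intervals of BCL2L1 (0.36 to 1.47), MCL1 (-1.03 to -0.13) and BCL2A1 (-1.55 to -0.18) lie to one side of 0, and those of the other 6 members span it.

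Of the guardians, BCL2L1 (ENSCAFG00000007053, chromosome 24, 21145215 to 21196355, minus strand, in the dog genome of Ensembl release 100) encodes BCL-XL. Its expression was 34.8, 44.6 and 33.03 FPKM in control replicates 1, 2 and 3 and 72.5, 53.9 and 91.3 FPKM in CPP-Se replicates 1, 2 and 3. The lowest CPP-Se dog, replicate 2, lay above the highest control dog. The group means were 37.5 ± 6.20 and 72.6 ± 18.7 FPKM (SD over 3 dogs, as for all genes below), and the log2 fold change was 0.92 (SE 0.24, adjusted p = 0.176 by limma). BCL2L1 ranked 313 of the 9847 genes by its unadjusted p of 0.00561 from limma. Leaving out any one dog gave values of 0.74 to 1.11, and without CPP-Se replicate 2 it was 1.11 (adjusted p = 0.136 by limma). With the negative binomial model it was 0.95 with an adjusted p of 0.0167, and over the other settings the adjusted p lay between 0.123 and 0.462.

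MCL1 (ENSCAFG00000012050, chromosome 17, 59759605 to 59763111, minus strand) encodes a guardian with a very short half-life. It had 134, 129 and 111 FPKM in the control dogs and 70.4, 88.4 and 90.8 FPKM in the CPP-Se dogs. All 3 CPP-Se dogs lay below the control dogs. The means were 125 ± 12.5 and 83.2 ± 11.1 FPKM, giving -0.58 as log2 fold change (SE 0.19, adjusted p = 0.227 by limma). Without CPP-Se replicate 2 it was -0.63 (adjusted p = 0.249 by limma), and the negative binomial model gave an adjusted p of 0.0561. With the reads outside hemoglobin genes as library size the groups overlapped, at 108 to 128 FPKM in the control dogs and 69.5 to 109 FPKM in the CPP-Se dogs, and the unadjusted p was 0.0903 by limma.

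BCL2A1 (ENSCAFG00000013979, chromosome 3, 57424555 to 57463692, plus strand) encodes BFL1, a guardian of myeloid cells induced by NF-kappa B. Control replicate 1 was well above the rest, with 32.7 FPKM, followed by 17.9 and 18.4 FPKM in control replicates 2 and 3 and by 15.5, 11.7 and 8.78 FPKM in the CPP-Se dogs. The groups were apart by a small gap, from 15.5 to 17.9 FPKM. The means were 23.0 ± 8.41 and 12.01 ± 3.38 FPKM, giving -0.87 as log2 fold change (SE 0.29, adjusted p = 0.235 by limma). It was -0.59 without control replicate 1 and -0.87 without CPP-Se replicate 2 (adjusted p = 0.540 and 0.311 by limma).

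BCL2 (ENSCAFG00000000068, chromosome 1, 13731406 to 13900658, plus strand), the founding guardian, was expressed at a low level, between 2.45 and 3.77 FPKM in the control dogs and between 3.66 and 5.11 FPKM in the CPP-Se dogs. The groups overlapped by 1 dog on each side, control replicate 3 and CPP-Se replicate 2. Its log2 fold change was 0.32 with a 95% confidence interval of -0.17 to 0.81 (adjusted p = 0.510 by limma), and it was 0.19 without control replicate 2 and 0.20 without CPP-Se replicate 3.

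BCL2L1 and MCL1 were the most abundant guardians, and their log2 fold changes had opposite signs, with neither gene called by limma. BCL2L1 held 13.5%, 18.4% and 15.1% of the family's summed FPKM in the control group and 34.5%, 27.9% and 36.1% in the CPP-Se group. MCL1 held 52.0%, 53.3% and 50.6% in the control group and 33.5%, 45.8% and 35.9% in the CPP-Se group. The FPKM of BCL2L1 divided by that of MCL1 was 0.259, 0.345 and 0.299 in the control group and 1.03, 0.610 and 1.01 in the CPP-Se group, so both genes stood at a near-equal level in CPP-Se replicates 1 and 3. This ratio was picked once its values were known and was not tested.

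**Figure D3:**
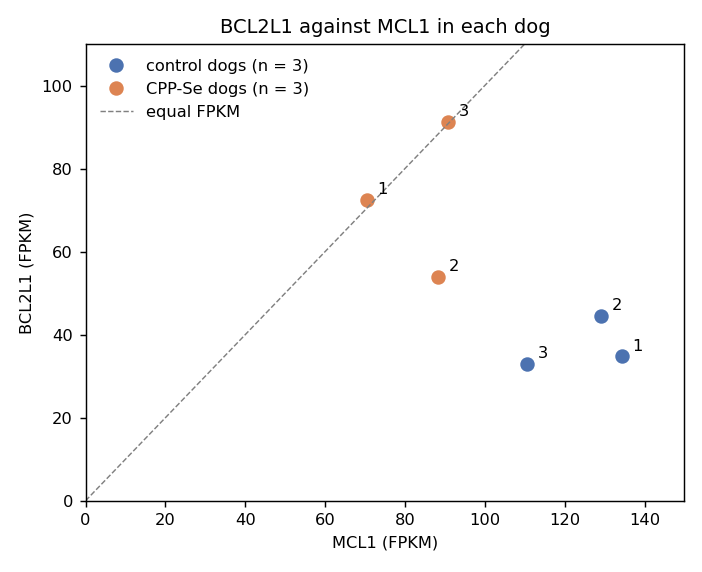
FPKM of BCL2L1 against FPKM of MCL1 in each dog, numbered by replicate, with a dashed line where both are equal. The 3 control dogs lie far under the line at 111 to 134 FPKM of MCL1, and CPP-Se replicates 1 and 3 lie just above it, with CPP-Se replicate 2 between.

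The effectors showed little difference. BAX (ENSCAFG00000003867, chromosome 1, 107422424 to 107426464) had 15.5 to 20.1 FPKM in the control dogs and 11.3 to 18.9 FPKM in the CPP-Se dogs, with a log2 fold change of -0.22 (95% confidence interval -0.74 to 0.30), and of -0.03 without CPP-Se replicate 2 and -0.38 without CPP-Se replicate 3. BAK1 (ENSCAFG00000001022, chromosome 12, 2948364 to 2957018) had 8.01 to 9.35 FPKM in the control dogs and 6.90 to 10.6 FPKM in the CPP-Se dogs. Its log2 fold change of 0.03 (95% confidence interval -0.43 to 0.49) changed sign with the dog left out. Their adjusted p were 0.675 and 0.959 by limma. BAK1 lies within the span of ITPR3 on the other strand, which held 2731 reads over the 6 dogs against 1249 on BAK1, and as the use of strand in the counting is not given, reads of the pair cannot be told apart for certain. The FPKM of BCL2L1 divided by that of BAX was 1.73, 2.88 and 1.89 in the control group and 4.62, 4.77 and 4.84 in the CPP-Se group, a ratio also chosen after its values were seen and not tested.

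Among the BH3-only genes, BCL2L11 was the one without overlap. BCL2L11 (ENSCAFG00000030412, chromosome 17, 35619582 to 35664587), which encodes BIM, had 2.48, 4.18 and 2.16 FPKM in the control dogs and 2.09, 2.07 and 1.28 FPKM in the CPP-Se dogs. The gap between the groups was small, from 2.09 to 2.16 FPKM, and control replicate 2 stood above the rest. Its log2 fold change was -0.47 (SE 0.26, adjusted p = 0.431 by limma), and -0.25 without control replicate 2. BID (ENSCAFG00000016168, chromosome 27, 45337145 to 45384059), cut by caspase 8 on the death receptor route, had the widest spread of the BH3-only genes by SD, with 11.2, 8.36 and 22.2 FPKM in the CPP-Se dogs against 15.8, 14.1 and 21.4 FPKM in the control dogs. Replicate 3 was thus the highest dog of each group, and the log2 fold change of -0.37 had a 95% confidence interval of -1.16 to 0.42. It was -0.09 without CPP-Se replicate 2 and -0.74 without CPP-Se replicate 3. BID overlaps BCL2L13, another family gene on the other strand, which held 154 reads over the 6 dogs against 2006 on BID. BAD (ENSCAFG00000014488, chromosome 18, 52781921 to 52791405), which is silenced by phosphorylation under growth factor signals, rested on 15 to 29 reads per dog. It had 5.88, 5.09 and 3.57 FPKM in the control dogs and 8.36, 4.16 and 7.50 FPKM in the CPP-Se dogs, a log2 fold change of 0.37 (95% confidence interval -0.28 to 1.01). It ran from 0.20 without control replicate 3 to 0.63 without CPP-Se replicate 2. Adjusted p for BID and BAD were 0.638 and 0.568 by limma.

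No row of the table had the symbol BNIP3L. A row without a symbol, ENSCAFG00000025105 (chromosome 25, 31136168 to 31148905), is described in the table as BNIP3-like protein, the product of BNIP3L, and was added after its values were seen. It had 356, 773 and 350 FPKM in the control dogs and 571, 405 and 1251 FPKM in the CPP-Se dogs, above the sum of the 9 members in each dog. The groups overlapped, with a log2 fold change at 0.53 (SE 0.48, adjusted p = 0.629 by limma). Both this row and BCL2L1 were highest within their groups in control replicate 2 and CPP-Se replicate 3. A pair of other rows with the same description, ENSCAFG00000043883 and ENSCAFG00000017795, held at most 4 and 3 reads in a dog, and the handling of reads shared between such copies is not given.

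Summed levels of blood cell markers differed between the groups for some cell types. By limma and by limma-voom 0 of the 67 markers tested were called, and by the negative binomial model 16, of which 8 were higher and 8 lower, where it called 4.38% of all genes tested (1.51% higher and 2.86% lower). The summed FPKM of 9 monocyte markers was 868 to 1013 in the control dogs and 422 to 499 in the CPP-Se dogs, and that of 8 neutrophil markers was 2434 to 3220 and 1850 to 2368, without overlap in either. MMP9, a granule protease on the neutrophil list, had a mean higher in the CPP-Se group, unlike the other 7 neutrophil markers, with 96.3, 68.3 and 86.1 FPKM in the control dogs and 729, 23.7 and 540 FPKM in the CPP-Se dogs (adjusted p = 0.61 by limma). Without MMP9 the neutrophil sum was 2357 to 3124 FPKM in the control dogs and 1310 to 1918 FPKM in the CPP-Se dogs, an alternative chosen after seeing the data. With the reads outside hemoglobin genes as library size, the neutrophil sum overlapped with MMP9 (2286 to 3066 and 1747 to 2390 FPKM) and without it, and the other sums stayed with or without overlap as given here. The summed FPKM of 12 T cell markers was 127 to 253 in the control dogs and 287 to 367 in the CPP-Se dogs, that of 10 B cell markers 279 to 399 and 427 to 468, and that of 8 NK and cytotoxic cell markers 11.6 to 27.0 and 30.4 to 54.0, again without overlap. The groups overlapped for 15 red cell markers (1417 to 3677 and 2352 to 3618), 7 platelet markers (844 to 1792 and 592 to 2099) and 3 eosinophil markers (5.83 to 8.68 and 3.80 to 24.0). The B cell sum was mostly CD79A, a chain of the B cell receptor complex, whose own groups overlapped, at 233 to 329 FPKM in the control dogs and 295 to 385 FPKM in the CPP-Se dogs (adjusted p = 0.613 by limma). In all dogs but CPP-Se replicate 2 the red cell sum was mostly ALAS2, the first enzyme of heme synthesis, and by gene 11 of 14 red cell markers had a log2 fold change above 0, with a median of 0.55. Of the lists, 4 neutrophil, 4 platelet and 2 eosinophil markers and 1 each of the monocyte, T cell and NK lists were not found by symbol, CD14 among them. An unadjusted p under 0.05 by limma was found for 7 monocyte and 6 neutrophil markers, all lower, and for 6 T cell, 5 B cell, 3 red cell and 2 NK and cytotoxic cell markers, all higher, where 16.0% of all genes tested had one.

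**Figure D4:**
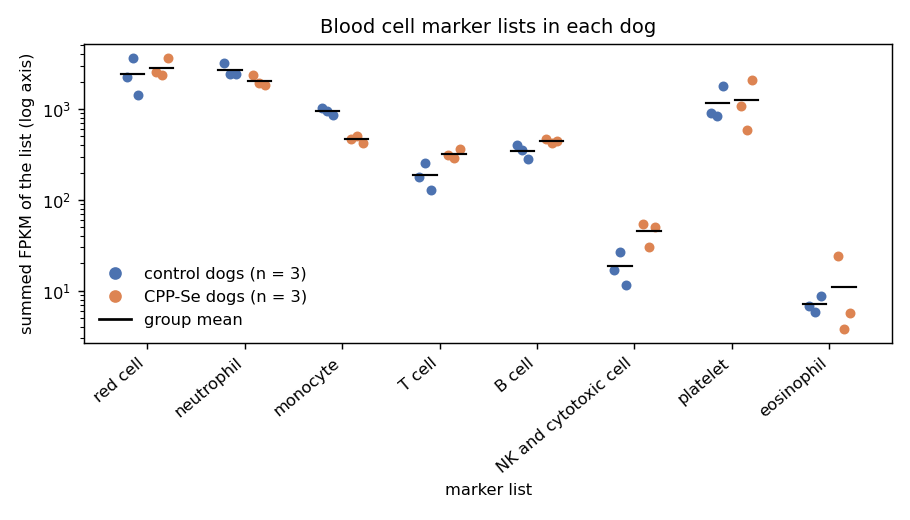
Summed FPKM on a log axis of 8 lists of blood cell markers in each of the 3 control and 3 CPP-Se dogs, with the group mean as a bar. Monocyte and neutrophil markers are lower and T cell, B cell, NK and cytotoxic cell markers higher in the CPP-Se dogs without overlap, and red cell, platelet and eosinophil markers overlap.

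The 3 guardians without overlap were also set against these lists. Per 1000 FPKM of neutrophil markers, MCL1 was 41.7 to 53.1 FPKM in the control dogs and 29.7 to 49.1 FPKM in the CPP-Se dogs, so the groups overlapped, and BCL2A1 was 7.37 to 10.2 and 4.75 to 6.56 FPKM, lower without overlap. The lack of overlap of BCL2A1 rested on MMP9. Without it MCL1 was 43.0 to 54.6 FPKM in the control dogs and 43.0 to 69.3 FPKM in the CPP-Se dogs, and BCL2A1 was 7.58 to 10.5 and 6.11 to 9.47 FPKM, so both overlapped. Per 1000 FPKM of monocyte markers, MCL1 was 127 to 135 FPKM in the control dogs and 149 to 215 FPKM in the CPP-Se dogs, higher without overlap, and BCL2A1 was 18.8 to 32.3 and 20.8 to 32.9 FPKM, with overlap. BCL2L1 overlapped per 1000 FPKM of red cell markers, at 12.1 to 23.3 FPKM in the control dogs and 22.9 to 28.3 FPKM in the CPP-Se dogs, and per 1000 FPKM of T cell markers, at 176 to 260 and 188 to 249 FPKM. These ratios were chosen after the values were seen, and the part of the cell types in the differences of BCL2L1, MCL1 and BCL2A1 was not tested.

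The genes whose profile over the 6 dogs was nearest to a member were sought among 4252 genes with a symbol and a mean of at least 5 FPKM, by the Euclidean distance of log2(FPKM + 1) centred on its mean. For BCL2L1 they were UBE2O (distance 0.26), SEPTIN1 (0.27) and CD3D (0.32), where the median gene lay at 1.47. UBE2O had 21.7 to 28.4 FPKM in the control dogs and 41.5 to 70.9 FPKM in the CPP-Se dogs, and SEPTIN1 23.3 to 32.0 and 44.5 to 59.0. CD3D, a chain of the T cell receptor complex, had 6.93 to 7.78 FPKM in the control dogs and 12.4 to 22.5 FPKM in the CPP-Se dogs. For BCL2A1 they were RNF144B (0.39), GLUL (0.43) and ALOX5AP (0.43), and for BCL2 they were SELENOF (0.13), TPRG1L (0.14) and PTBP1 (0.16). These distances describe 6 dogs and include the difference between the groups.

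Of 13 other BCL2 family genes, 6 were found by symbol and 4 were tested. By limma, limma-voom and the negative binomial model alike, 0 of the 4 were called, and 2 had an unadjusted p under 0.05 by limma, both lower, against 9.10% of all genes tested. BNIP3, a mitophagy receptor related to BNIP3L, had 2.71, 2.32 and 3.22 FPKM in the control dogs and 1.73, 1.11 and 1.81 FPKM in the CPP-Se dogs. It rested on a mean of 17.3 reads per dog. Its log2 fold change was -0.56 (adjusted p = 0.282 by limma), -0.96 with limma-voom and -0.87 with the negative binomial model. The unadjusted p was 0.0555 by limma-voom and 0.102 by the negative binomial model. BCL2L15 had 8.34, 19.1 and 6.83 FPKM in the control dogs and 3.17, 0.305 and 8.64 FPKM in the CPP-Se dogs, so the groups overlapped. BCL2L15 rested on a mean of 25.5 reads per dog, with 2 reads in CPP-Se replicate 2. Its log2 fold change was -1.60, and -0.84 without this dog. It was -2.81 with limma-voom (unadjusted p = 0.0125) and -1.54 with the negative binomial model (unadjusted p = 0.0729). PMAIP1, named after its values were seen, encodes NOXA, the BH3-only partner of MCL1. It had 153, 62.5 and 107 FPKM in the control dogs and 77.2, 63.4 and 57.4 FPKM in the CPP-Se dogs, on an annotated length of 168 bases, and the groups overlapped (adjusted p = 0.401 by limma). Its log2 fold change was -0.62, and -0.32 without control replicate 1 and -0.96 without control replicate 2.

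Downstream of the mitochondrion, 20 of 24 apoptosis execution genes were tested, 9 with a log2 fold change above 0 and 11 below, with a median of -0.07. By limma and limma-voom 0 were called and by the negative binomial model 1, PARP1, where it called 4.38% of all genes tested. An unadjusted p under 0.05 by limma was found for 4, 1 higher and 3 lower, against 16.0% of all genes tested. PARP1, a DNA repair enzyme cut by caspases, had 9.41, 9.46 and 8.60 FPKM in the control dogs and 13.2, 14.3 and 15.8 FPKM in the CPP-Se dogs, a log2 fold change of 0.60 (adjusted p = 0.183 by limma and 0.0385 by the negative binomial model). BIRC3, an inhibitor of apoptosis protein on the TNF receptor route, had 18.3 to 19.3 FPKM in the control dogs and 11.3 to 14.0 FPKM in the CPP-Se dogs (log2 fold change -0.53, adjusted p = 0.207 by limma). The death receptor gene FAS had 17.6 to 24.7 FPKM in the control dogs and 11.5 to 16.0 FPKM in the CPP-Se dogs (log2 fold change -0.57, adjusted p = 0.261 by limma). The groups of these 3 genes, named for their low unadjusted p by limma, did not overlap. Of the 20 genes tested, 2 were higher and 4 lower without overlap, against 10.4% and 12.6% of all genes tested. The initiator caspase gene CASP9, by contrast, had a log2 fold change of 0.09, and its groups overlapped.

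Of 20 mitophagy genes, 16 were tested, with 4 log2 fold changes above 0, 12 below and a median of -0.23. By limma, limma-voom and the negative binomial model 0 were called, and 1 had an unadjusted p under 0.05 by limma, against 16.0% of all genes tested. This was SQSTM1, which encodes the cargo receptor p62, with 18.7, 19.9 and 26.3 FPKM in the control dogs and 17.0, 16.2 and 10.8 FPKM in the CPP-Se dogs (log2 fold change -0.54, adjusted p = 0.312 by limma), and its log2 fold change was -0.35 without CPP-Se replicate 3. GABARAP, which binds BNIP3L on the autophagosome, was the most abundant of the list by mean FPKM, with means of 417 ± 35.8 and 342 ± 30.7 FPKM in the control and CPP-Se groups. Its groups did not overlap, as in 23.0% of all genes tested. The log2 fold change was -0.29 (adjusted p = 0.531 by limma). GABARAP was named for its role, as were CASP9, GATA1 and EPOR, after the values were seen.

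Of 20 upstream regulators, 18 were tested, 5 with a log2 fold change above 0 and 13 below, with a median of -0.18. By limma and limma-voom 0 were called and by the negative binomial model 2, TRIM17 (higher) and BCL6 (lower), where it called 4.38% of all genes tested. An unadjusted p under 0.05 by limma was found for 4, against 16.0% of all genes tested. BCL6, a transcriptional repressor, had 73.4, 77.3 and 73.4 FPKM in the control dogs and 31.0, 49.7 and 38.2 FPKM in the CPP-Se dogs, a log2 fold change of -0.92 (adjusted p = 0.144 by limma and 0.00802 by the negative binomial model). TRIM17, a ubiquitin ligase reported to act on MCL1, had 6.83, 7.54 and 7.29 FPKM in the control dogs and 20.5, 10.8 and 10.6 FPKM in the CPP-Se dogs, a log2 fold change of 0.80 (adjusted p = 0.220 by limma and 0.0378 by the negative binomial model), and of 0.51 without CPP-Se replicate 1. STAT3, a transcription factor under cytokine receptors, had 40.2 to 50.8 FPKM in the control dogs and 28.8 to 35.8 FPKM in the CPP-Se dogs (log2 fold change -0.48, adjusted p = 0.270 by limma). GATA1 and EPOR, which act on BCL2L1 in red cell precursors, had log2 fold changes of -0.09 and -0.29 with overlapping groups, and EPOR had -0.51 with limma-voom.

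**Figure D5:**
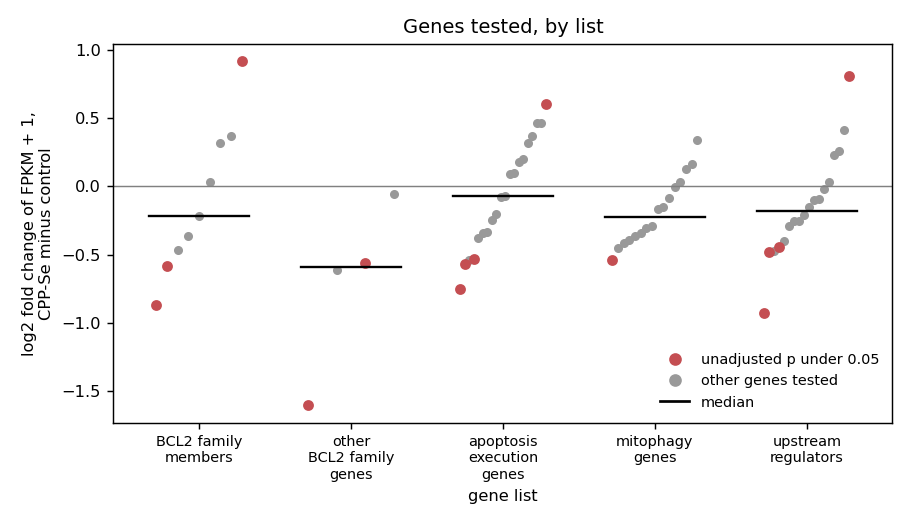
Log2 fold change of FPKM + 1 (CPP-Se minus control) by limma of the genes tested in 5 lists, with the list's median as a bar and genes with an unadjusted p under 0.05 in red. The medians run from -0.59 for the other BCL2 family genes to -0.07 for the apoptosis execution genes, and each list but the other BCL2 family genes holds genes on both sides of 0.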

How the data were processed

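Whole blood RNA of 3 control and 3 CPP-Se dogs was analysed, 1 library per dog. Per the labels and the study's methods, the authors used CASAVA 2.19, fastp 0.19.7, HISAT2 2.0.5, StringTie and featureCounts 1.5.0-p3 with the dog genome of Ensembl release 100, and deposited FPKM per gene. The library size behind the FPKM, the use of strand and the handling of shared reads are not given in the sources used here. The product of FPKM and length went up in steps of 1 size per library: 100% of the genes came out whole within 0.05 reads, and the whole numbers were used as reads.

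Groups followed the labels, and no pairing was used. Tests were run in R 4.3.3 with limma 3.58.1 (lmFit, eBayes with an intensity trend) on log2(FPKM + 1), two-sided, with Benjamini-Hochberg adjustment. The pseudocount of 1 understates changes of low genes. Tables and figures were made in Python 3.11.15 (pandas 2.3.3, numpy 2.4.6, scipy 1.17.1, matplotlib 3.10.9). The alternatives were another pseudocount, filters, scalings, variance models and thresholds, a replicate block, limma-voom, each dog left out, and a negative binomial fit to those reads (a mean per group, dispersions shrunk to a trend, Wald statistic, two-sided). The limma, limma-voom and negative binomial fits were also run on simulated data, and the outcome is not reported here. The authors' test on counts was not repeated here with their software.

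The members and lists were chosen with earlier results of these data known. Named genes were the members, the genes of each of the 4 pathway lists with the 2 lowest unadjusted p under 0.05 in each direction, the nearest profiles, and genes given for their role or chosen after their values were seen, ALAS2, CD79A and MMP9 among them. Markers were otherwise given as lists. Precision is set by 3 dogs per group. Counts from PCR libraries without molecular identifiers cover counting error only. Some genes of the lists are not reported here.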

Additional observations from a re-analysis of the deposited data

How the results depend on the processing

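Over the alternatives, 8 of the 9 members kept the direction of their log2 fold change. The exception was BAK1, at -0.02 without control replicate 3, -0.0903 without CPP-Se replicate 1 and -0.00983 without CPP-Se replicate 2, with a range of -0.0903 to 0.19 over the dogs left out. The number of members called was 1 with the negative binomial model and 0 under the other settings run, and with this model 1 apoptosis execution gene and 2 upstream regulators were called. The number of all genes called was 431 with this model (149 higher and 282 lower), 0 with a pseudocount of 0.1 or with no filter, 1 with a mean of at least 5 FPKM, with limma-voom or with the replicate block, and 0 to 14 with a dog left out. The cause of these differences was not tested. The block changed the call of no member. The labels do not say whether replicate numbers pair the dogs. The deviations of same-numbered dogs from their group means correlated across genes at 0.0165, -0.09 and -0.04. No dog correlated best with its own number, but such correlations cannot show whether the dogs were paired. Taking the reads outside hemoglobin genes as library size moved the median log2 fold change of all genes to 0.10, with BCL2L1 at 1.04, MCL1 at -0.45 and BCL2A1 at -0.74. Among the members, BAD and BCL2, with under 50 reads per dog on average, were limited most by depth.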
